A study of Mus musculus with 24 samples.

Results

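The S100 calcium-binding proteins described here are 10 genes, S100a1, S100a4, S100a6, S100a8, S100a9, S100a10, S100a11, S100a13, S100a14 and S100a16, chosen by name and followed across mouse lacrimal gland (LG), the gland that makes the watery part of tears, and cultured lacrimal gland stem cells (LGSCs). They are 10 of the 63862 genes and assembled loci listed for 20 RNA sequencing libraries, and all 10 were found by their Ensembl identifiers. All samples came from C57BL/6 mice. LGSCs were started from the LG of mice 6 to 8 weeks old and grown as spheres in Matrigel with EGF, FGF10, Wnt3A and the ROCK inhibitor Y-27632, without serum, and passage 2 spheres were taken at day 5 (2 libraries) and at days 7, 10 and 14 (3 libraries each). Whole LG was taken from adults and from embryos at E17.5 and E19.5 (3 libraries each), where E gives the embryonic day, and these tissue libraries hold stromal, vascular and blood cells as well as epithelium. A single library of passage 10 spheres at day 7 is given by value only. The labels do not say whether libraries of a group came from separate animals or cultures, so p-values measure the spread between these libraries, which may be technical. Of the 24 samples, 3 (a day 5 library and the passage 6 and passage 20 spheres) were not analysed here.

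S100 proteins are small proteins with a pair of EF-hand loops that bind calcium. Most form dimers, and calcium binding exposes a surface that grips a target protein inside the cell. Some, above all the S100a8 and S100a9 pair known from neutrophils, are also released and act on receptors such as Ager (RAGE) and Tlr4. S100a10 stands apart in that its loops no longer bind calcium, and it is known as the partner of annexin A2. Several S100 genes are known from epithelia, S100a14 among them.

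In the GENCODE M21 annotation of build GRCm38 all 10 genes lie on chromosome 3. S100a1, on the minus strand, spans 90511034 to 90514392. S100a13, S100a14, S100a16, S100a4, S100a6 and S100a8 follow on the plus strand, S100a13 from 90514435 to 90524581 and S100a6 from 90612882 to 90624181, and S100a9 lies beyond them on the minus strand from 90692632 to 90695721. S100a11, from 93520488 to 93526287, and S100a10, from 93555080 to 93564643, stand in a separate group farther along the chromosome.

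The starts of S100a1 and S100a13 face away from each other. This stretch is shown because the genes on its sides had very different values, with 163 to 2135 reads for S100a1 in each of the 20 libraries against 0 to 2 for S100a13. In the single passage 10 library, whose table was made against another gene list, they were alike, at 248 and 306 reads (15.0 and 17.996 FPKM). The part of the way the tables were made in the low S100a13 values was not tested. RefSeq (GRCm38.p6) leaves 104 bases between their starts, chr3:90514331-90514434, written here along the plus strand with no part marked.
S100a1 to S100a13: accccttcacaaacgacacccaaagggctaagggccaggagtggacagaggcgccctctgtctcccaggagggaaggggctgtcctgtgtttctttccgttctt
The GENCODE model of S100a1 starts within this stretch, so part of it is transcribed in that annotation.

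RefSeq promoters were at hand for 8 of the 10 genes, and S100a10 and S100a14 had none. Their 250 bases before the start were searched on both strands for the AP-1 motif TGANTCA, the TATA motif TATAAA and the GC box GGGCGG, motifs chosen after the sequences had been read. S100a11 and S100a6, which were both higher in culture than in adult LG, are shown to compare their promoters, with matches in capitals.
S100a11, chr3:93520246-93520495, plus strand: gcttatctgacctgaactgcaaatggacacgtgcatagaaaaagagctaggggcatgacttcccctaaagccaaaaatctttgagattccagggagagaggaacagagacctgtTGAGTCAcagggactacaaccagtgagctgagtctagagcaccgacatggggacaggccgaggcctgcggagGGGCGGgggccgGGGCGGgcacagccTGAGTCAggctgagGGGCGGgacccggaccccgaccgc
S100a6, chr3:90612644-90612893, plus strand: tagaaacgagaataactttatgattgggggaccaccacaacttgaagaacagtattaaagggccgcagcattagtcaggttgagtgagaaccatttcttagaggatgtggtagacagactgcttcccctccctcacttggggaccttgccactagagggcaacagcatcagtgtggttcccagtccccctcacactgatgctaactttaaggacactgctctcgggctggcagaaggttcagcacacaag
The S100a11 window held 2 AP-1 matches, which begin 136 and 38 bases before the start, and 3 GC boxes, and the S100a6 window held no match to any of the 3 motifs. Of 32851 promoter windows of this length, 6.75% held the AP-1 motif, 12.4% the TATA motif and 32.7% the GC box. S100a4 and S100a8 each held 1 TATA match, which begins 31 and 30 bases before the start. The S100a16 window at chr3:90540896-90541145 held 1 AP-1 match and 1 GC box, which begin 192 and 30 bases before the start, and its other window held none. S100a9 held 1 GC box, which begins 223 bases before the start.

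The deposited values are FPKM, fragment counts divided by transcript length and sequencing depth, from which whole reads could be recovered, 6434281 to 9257025 a library in the 20 libraries and 25172949 at passage 10. Adult LG replicates 1 and 2 stood apart. Their top 10 genes held 60.4% and 59.6% of reads, against 31.3% in adult replicate 3 and at most 8.1% in the other libraries. The ratio of recovered reads to the scale behind the FPKM was 2.67 and 2.57 in them, against 0.832 to 1.13 elsewhere. The 20 tables list several widely used genes at 0 in every library, among them Gapdh, Mki67 and the epithelial markers Epcam and Krt8, so a value of 0 is given here only as listed at 0. The epithelial label of the spheres rested on Krt18, Cdh1 (E-cadherin) and Cldn7, at 671, 616 and 57.8 FPKM on average at day 7. The stem cell keratins were listed at low values there, Krt14 at 11.3 FPKM and Krt5 at 1.02 FPKM. By contrast, the paper reports strong Krt14 staining throughout the spheres and high Krt14 and Krt5 transcripts across passages. Whether the way the tables were made lowered the listed keratin values was not tested.

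S100a10 and S100a1 made up most of the S100 signal in these libraries. In the 11 culture libraries S100a10 took 40.3% to 78.1% of the summed FPKM of the 10 genes, and in the 6 embryonic libraries 67.3% to 76.7%. In adult LG the order was turned, and S100a1 took 68.8% to 71.0%. S100a16 came next in FPKM on average, at 52.3 FPKM over the 20 libraries, ahead of S100a11 at 11.1, S100a6 at 5.13 and S100a14 at 2.73. S100a4, S100a8, S100a9 and S100a13 were at or near 0, with 4, 32, 0 and 5 reads in all over the 20 libraries, and none of them passed the filter of a mean of 0.5 FPKM in any comparison.

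**Figure D1:**
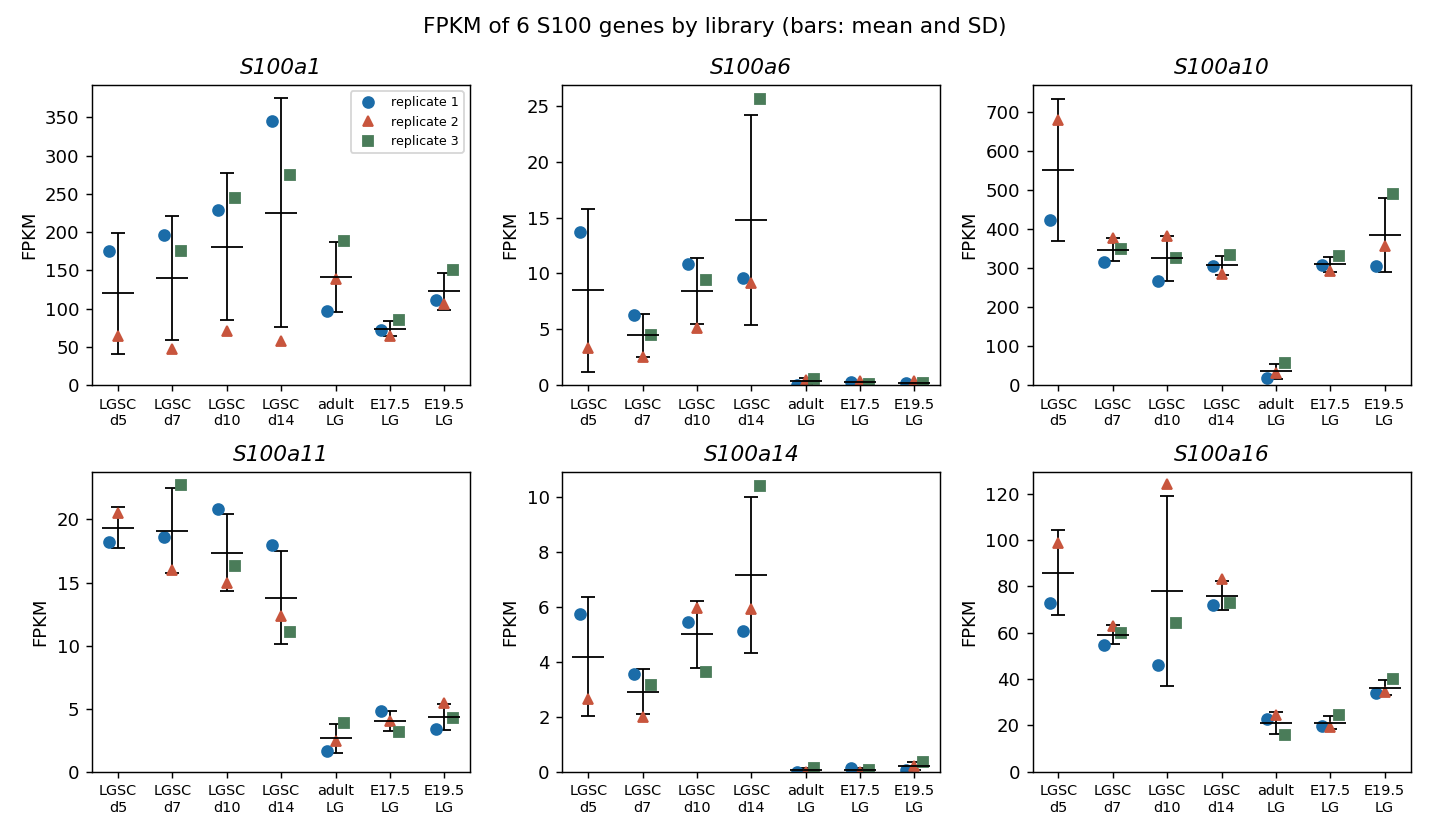
FPKM of the 6 S100 genes that averaged 0.5 FPKM or more, in each passage 2 LGSC, adult LG and embryonic LG library. Points are libraries marked by replicate number, and black bars are the group mean and SD (n = 3, and n = 2 at day 5). S100a10 is low in adult LG alone, and S100a6, S100a11 and S100a14 are higher in all culture libraries than in any tissue library.

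The adult and embryonic glands were compared to see how the S100 genes differ between the growing and the mature LG. S100a10 was far higher in both embryonic stages, S100a16 was higher at E19.5, and S100a1 was lower at E17.5. Of the 10 genes 4 could be tested, and at E17.5 the test called 1 higher and 1 lower, beside 29.1% and 24.9% of all genes tested. At E19.5 2 were called higher and none lower, against 30.3% and 23.9% of all genes. With so many genes called, the counts say nothing particular about the S100 genes, and the values of each gene are what can be read. Calls are from limma on log2(FPKM + 1), with an adjusted p-value (Benjamini-Hochberg over all genes tested) under 0.05.

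S100a10, which links annexin A2 into a tetramer at the cell membrane, was at 19.2, 30.4 and 56.8 FPKM in adult LG. It was at 307, 293 and 331 FPKM at E17.5 and at 306, 357 and 491 FPKM at E19.5. All embryonic libraries were thus above all adult ones. The log2 difference from adult was 3.23 ± 0.35 (SE) at E17.5, with a limma adjusted p = 1.1e-04, and 3.51 ± 0.35 at E19.5, with a limma adjusted p = 7.6e-05. The mean FPKM was 8.74 and 10.8 times that of adult LG, and both comparisons share the same 3 adult libraries.

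S100a1, best known from heart and skeletal muscle, where it acts on the calcium pump Atp2a2, was at 97.4, 139 and 189 FPKM in adult LG and at 71.7, 64.7 and 84.8 FPKM at E17.5. The groups did not overlap, but the highest E17.5 library was close to the lowest adult one. Relative to adult LG it fell by 0.89 ± 0.26 (SE) on the log2 scale, with a limma adjusted p = 0.0172. At E19.5 its values of 111, 106 and 150 FPKM lay within the adult range, and the log2 difference was -0.18 ± 0.26 (limma adjusted p = 0.584). The E17.5 call was lost when E17.5 replicate 1 or E17.5 replicate 2 was left out (limma adjusted p = 0.0525 and 0.064), with no filter (0.0673) and with all 20 libraries in one fit (0.283). Over its alternatives the adjusted p ran from 0.004 to 0.847, and with values scaled to the recovered reads the difference was 0.12, beside a median of 0.64 over all genes.

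S100a16 was at 22.8, 24.6 and 15.7 FPKM in adult LG and at 19.7, 19.51 and 24.3 FPKM at E17.5, groups that overlapped. At E19.5 it was at 34.2, 34.5 and 40.0 FPKM, above every adult and E17.5 library. The log2 difference from adult was 0.03 ± 0.19 at E17.5 (limma adjusted p = 0.916) and 0.78 ± 0.19 at E19.5 (limma adjusted p = 0.00817). With values scaled to the recovered reads the E17.5 difference was 0.98 and passed (limma adjusted p = 0.00279), beside the median of 0.64 over all genes, and the E19.5 difference was 1.62, beside a median of 0.58.

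S100a11, a partner of annexin A1, was at 1.62, 2.47 and 3.85 FPKM in adult LG, which rest on 2, 4 and 15 reads. Its values were 4.78, 4.06 and 3.18 FPKM at E17.5 and 3.36, 5.44 and 4.24 FPKM at E19.5. The groups overlapped, and neither difference passed (0.49 ± 0.25, limma adjusted p = 0.133, and 0.58 ± 0.25, limma adjusted p = 0.0829). Without adult replicate 3 both passed, at 0.72 and 0.81, with limma adjusted p = 0.0214 and 0.013. Both also passed with values scaled to the recovered reads, at 1.08 and 1.07, with limma adjusted p = 0.0305 and 0.0323, beside the same medians of 0.64 and 0.58. S100a6 and S100a14 were barely detected in whole gland, at 0 to 0.575 FPKM and 0 to 0.369 FPKM over the 9 tissue libraries, and could not be tested there.

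Between the embryonic stages themselves limma called 0 of the 4 S100 genes tested (2 had an unadjusted p under 0.05, as did 15.3% of all genes), where 1.11% of all genes were higher and 0.624% lower at E19.5. S100a16 and S100a1 were higher at E19.5 without overlap, by 0.75 ± 0.19 and 0.71 ± 0.26 on the log2 scale, but missed the threshold (limma adjusted p = 0.101 and 0.225). S100a16 passed without adult replicate 3 (limma adjusted p = 0.0108), which changes the shared spread and the genes tested but not its difference. In that fit 1736 of 18400 genes were called, against 323 of 18578 as reported. With adult replicate 3 as the sole adult library the S100a16 difference was again 0.75.

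Cell type markers moved with the same groups. The summed FPKM of 8 fibroblast markers, such as Col1a1 and Col3a1, was 175 to 346 in adult LG, 4746 to 5461 at E17.5 and 4734 to 5715 at E19.5. Of 7 tested markers 6 and 7 were higher, beside 29.1% and 30.3% of all genes. Col1a2 and Pdgfra averaged 0.222 and 0.276 FPKM in adult LG. They passed the filter only through the embryonic libraries and could be called only as higher. The 6 acinar markers, nearly all of it the secretory gene Mucl2, summed to 171262 to 807369 FPKM in adult LG and to at most 46.0 FPKM in embryonic LG. The 6 epithelial markers, with Epcam and Krt8 listed at 0, summed to 773 to 1106 FPKM in adult LG, 340 to 481 FPKM at E17.5 and 770 to 962 FPKM at E19.5. Krt18, which leads that sum, fell by 1.73 ± 0.23 on the log2 scale at E17.5 relative to adult LG (limma adjusted p = 3.1e-04). It was higher at E19.5 than at E17.5 by 1.61 ± 0.23 (limma adjusted p = 0.0183). Among these tissues the epithelial sum and S100a1 were thus both lowest at E17.5, as was Cldn7 (17.8, 9.62 and 11.4 FPKM on average in adult, E17.5 and E19.5 LG). Cdh1, the next largest marker, was not, at 136, 150 and 157 FPKM. In whole tissue, fewer cells of a type and less RNA per cell cannot be told apart, and the part of cell makeup in the S100a10, S100a16 and S100a1 differences was not tested.

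The spheres at day 7 were compared with the adult gland they were grown from. Of the 6 S100 genes tested, S100a6 and S100a14 averaged 0.346 and 0.0506 FPKM in adult LG and passed the filter only through the day 7 libraries, so they could be called in no direction but higher, and their calls carry no weight in a count. Of the other 4, S100a10, S100a11 and S100a16 were higher in the spheres and none was lower, where 14.2% of all genes were higher and 21.1% lower. S100a1 was the gene that did not differ beyond its spread.

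S100a10 was at 316, 376 and 349 FPKM at day 7, again far above the 19.2 to 56.8 FPKM of adult LG, a log2 difference of 3.39 ± 0.39 (SE, limma adjusted p = 0.00143). S100a11 was at 18.6, 16.02 and 22.7 FPKM, above the highest adult value of 3.85 FPKM, by 2.50 ± 0.29 (limma adjusted p = 0.00141). S100a16 was at 54.7, 62.8 and 59.7 FPKM, above the highest adult value of 24.6 FPKM, by 1.47 ± 0.23 (limma adjusted p = 0.0045). These 3 genes were called without any single library. With adult replicate 3 as the sole adult library, whose spread is then taken from the day 7 libraries alone, the differences were 2.59, 2.04 and 1.84, with limma adjusted p = 0.00544, 0.0262 and 0.00832.

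S100a6, known from proliferating cells as calcyclin and bound by the protein Cacybp, was at 6.32, 2.53 and 4.49 FPKM at day 7 and at 0, 0.461 and 0.575 FPKM in adult LG. S100a14 was at 3.56, 1.999 and 3.17 FPKM at day 7 and at 0, 0 and 0.152 FPKM in adult LG. No adult library reached a culture library for either gene. The log2 differences were 1.98 ± 0.33 for S100a6 (limma adjusted p = 0.00548) and 1.88 ± 0.22 for S100a14 (limma adjusted p = 0.00161), which the pseudocount of 1 makes small, and with a pseudocount of 0.1 they were 3.67 and 4.45. The adult values rest on 8 reads for S100a6 and 2 for S100a14. By pooled reads over the library scales, day 7 was 10.3 times adult LG for S100a6, with an exact 95% interval of 5.09 to 24.2, and 33.7 times for S100a14, with an interval of 9.16 to 281, and both cover counting error only. With adult replicate 3 as the sole adult library, S100a6 and S100a14 missed the threshold at differences of 1.73 and 1.74 (limma adjusted p = 0.121 and 0.0542).

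S100a1 was at 196, 47.5 and 176 FPKM at day 7 and overlapped adult LG, with a log2 difference of -0.21 ± 0.58 (limma adjusted p = 0.8). Without day 7 replicate 2 the difference was 0.44 (limma adjusted p = 0.389), and it was also above 0 without adult replicate 3 (0.02) and with values scaled to the recovered reads (0.91). Fibroblast and endothelial markers were far lower in the spheres: at day 7 the fibroblast sum was at most 0.686 FPKM and the 5 endothelial markers summed to at most 0.201 FPKM, against 43.4 to 130 FPKM in adult LG. The acinar sum was at most 0.129 FPKM at day 7. The macrophage and leukocyte sum was 19.7 to 116 FPKM against 163 to 499 FPKM in adult LG, with Cd14 at 65.9 against 127 FPKM on average. The nerve sheath sum was nearer, at 10.8 to 15.1 against 15.3 to 31.0 FPKM, with Mbp at 12.2 against 10.6 FPKM on average. The share of these cells in the differences was not tested.

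**Figure D2:**
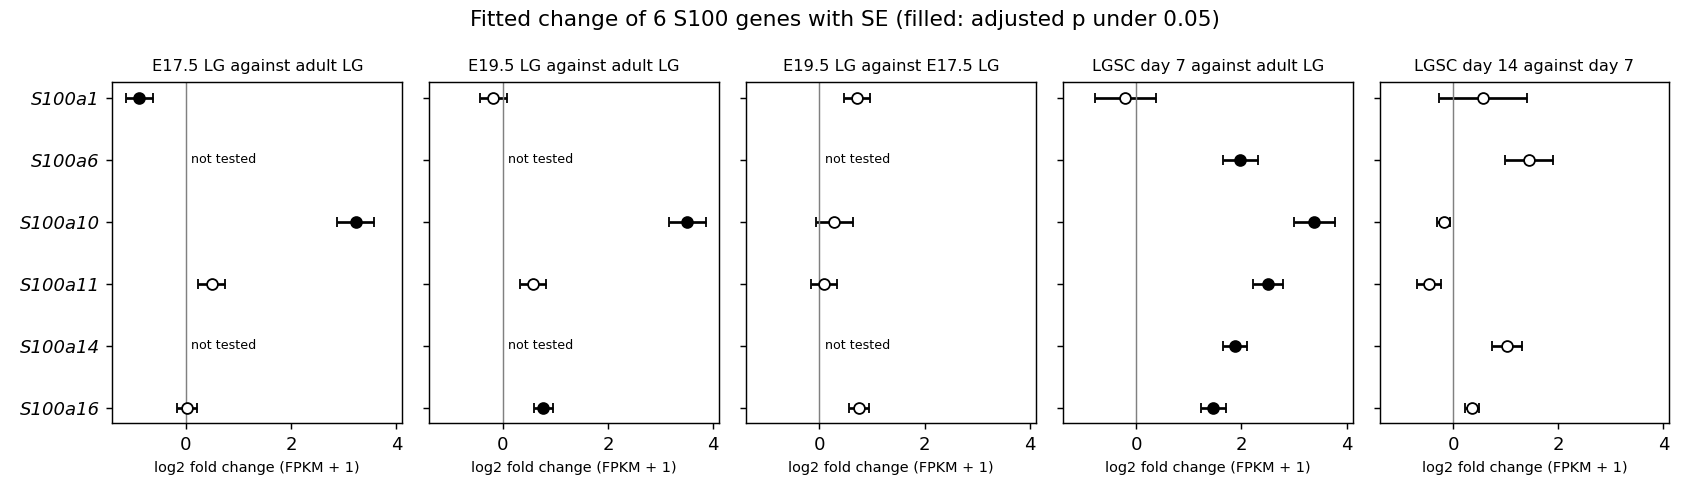
Fitted log2 fold change of log2(FPKM + 1) with its SE for 6 S100 genes in 5 comparisons, the group named before "against" minus the group after it. Filled points passed an adjusted p-value of 0.05, and genes under the filter are marked as not tested. S100a10 lies above 3 in each comparison with adult LG, and no point is filled between the embryonic stages or between day 14 and day 7.

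The culture days were compared to follow the S100 genes as the spheres aged. Between day 14 and day 7 none of the 6 genes was called (3 had an unadjusted p under 0.05), and neither was any other gene (0% of 15744 genes by limma, with 1557 at an unadjusted p under 0.05). Limma-voom on the recovered reads also called 0 genes, while 26 genes were called with no filter and 50 with all 20 libraries in one fit, no S100 gene among them. Over all 4 days, 0.648% of all genes rose with the day and 1.5% fell, and no S100 gene was among them, though 4 of 6 had an unadjusted p under 0.05, as did 19.0% of all genes. With the replicate number as a block, which pairs the culture libraries, 783 genes were called in place of 334, still with no S100 gene.

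Values of several genes were nonetheless apart. S100a6 was at 9.60, 9.12 and 25.6 FPKM at day 14, above the day 7 values of 2.53 to 6.32 FPKM, with a log2 difference of 1.44 ± 0.45 (limma adjusted p = 0.445). S100a14 was at 5.13, 5.92 and 10.4 FPKM at day 14, above the day 7 values of 1.999 to 3.56 FPKM, by 1.03 ± 0.29 (limma adjusted p = 0.44). In both genes replicate 3 was the highest day 14 library. At day 5, however, replicate 1 had 13.7 FPKM of S100a6 and 5.72 FPKM of S100a14, so that day 5 and day 14 overlapped for both genes and day 7 held the lowest mean of both genes.

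S100a10 was at 423 and 680.1 FPKM at day 5, at 267, 382 and 326 FPKM at day 10 and at 304, 284 and 333 FPKM at day 14. Its slope was -0.07 ± 0.03 per day on the log2 scale (SE, limma adjusted p = 0.177). S100a11 was at 18.2 and 20.5 FPKM at day 5 and at 18.01, 12.3 and 11.1 FPKM at day 14, a slope of -0.06 ± 0.02 (limma adjusted p = 0.187). S100a16 was at 71.9, 83.0 and 72.7 FPKM at day 14, above the day 7 values of 54.7 to 62.8 FPKM, by 0.355 ± 0.131 (limma adjusted p = 0.481). Its values spread most at day 10, at 45.9, 124 and 64.2 FPKM, and its slope was 0.01 ± 0.04 (limma adjusted p = 0.931).

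The culture replicates differed more than the days for S100a1. In replicate 2 it was at 63.7, 47.5, 70.5 and 57.0 FPKM at days 5, 7, 10 and 14. In replicate 1 it was at 176, 196, 228 and 345 FPKM on those days, and in replicate 3 at 176, 244 and 274 FPKM at days 7, 10 and 14. Replicate 2 was therefore the lowest library at every day, as it was for 9.16% of 18288 genes, and the others had 2.76 to 5.43 times as much on average. S100a6 was also lowest in replicate 2 at every day, with 1.93 to 4.09 times as much in the others on average, and S100a16 was highest there at every day, at 1.10 to 2.25 times the mean of the others. Without the replicate 2 series, an alternative chosen after these values were seen, the S100a1 slope was 0.10 per day with a limma adjusted p = 0.0316. It was the 1 S100 gene called, in place of 0. In that fit 280 of 15261 genes were called, 142 of them rising, against 334 of 15584 as reported.

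Replicate 2 also held most of the S100a8 reads, 24 of the 26 in the 11 culture libraries, with 5, 5, 12 and 2 reads at the 4 days. S100a7a, a neighbour in the family that is not among the 10 genes and is named here for this pattern after its values were seen, was at 12.6, 15.4, 55.2 and 71.8 FPKM in replicate 2, while the other culture libraries were at 0.471 to 6.82 FPKM. Replicate 2 was the highest library at every day for 10.97% of 18288 genes. The summed FPKM of 10 markers of cornifying epidermis, such as Krt1 and Krtdap, was 690.3, 1365, 3081 and 697 in replicate 2 over the 4 days and 1.21 to 133 in the other culture libraries, and Lor, Ivl and Sprr1a were listed at 0 in all of them. The epithelial markers summed to 595 to 735 FPKM in replicate 2 and to 1425 to 2718 FPKM in the other culture libraries. The 6 basal and stem markers summed to 39.3, 54.7, 429 and 734 FPKM in replicate 2 over the 4 days. The other libraries were at 51.9 FPKM at day 5, at 31.8 and 16.9 FPKM at day 7, and at 12.05 to 26.8 FPKM at days 10 and 14. Krt15 led this list at days 10 and 14, with group means of 142 and 248 FPKM, while Krt14 averaged 8.83 and 5.40 FPKM. The part of these cells in the S100a1, S100a6, S100a8 and S100a16 values was not tested.

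**Figure D3:**
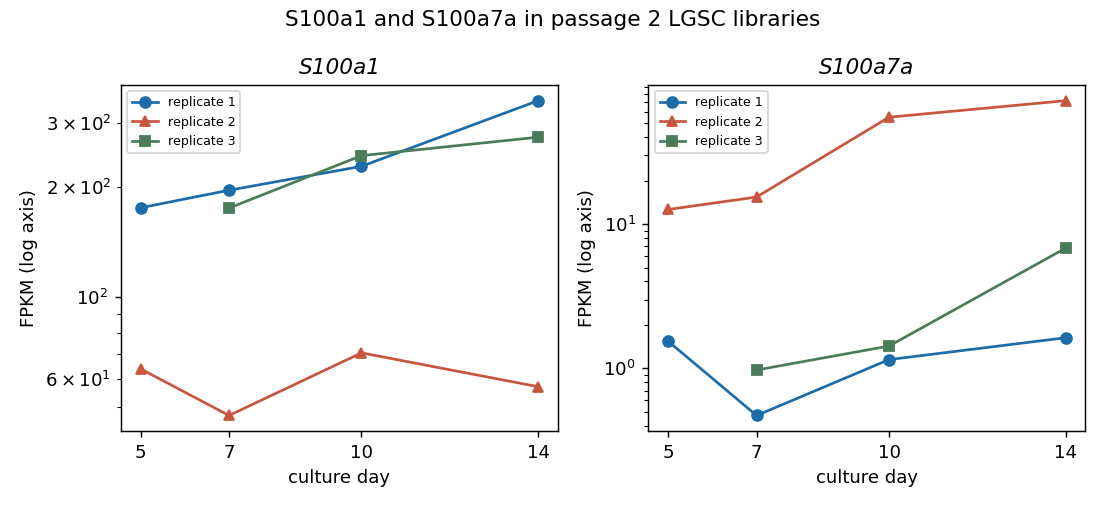
FPKM on a log axis of S100a1, a member, and S100a7a, a family neighbour, over the culture days in passage 2 LGSC libraries, with a line for each replicate number (no day 5 library of replicate 3 was used). Replicate 2 is the lowest line for S100a1, at 47.5 to 70.5 FPKM, and the highest for S100a7a, at 12.6 to 71.8 FPKM.

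The order of the groups by mean FPKM differed between genes. S100a1 ran from day 14 (225 ± 150 FPKM, SD, n = 3) down to E17.5 (73.7 ± 10.2 FPKM), and every neighbour in that order overlapped. S100a10 ran from day 5 (551 ± 182 FPKM, n = 2) through the embryonic and other culture groups, which overlapped with their neighbours, to adult LG (35.5 ± 19.3 FPKM), which stood apart. S100a6, S100a11 and S100a14 had the 4 culture days above all tissue groups, with a gap between them, while neighbours in the order overlapped among the culture days and among the tissues. For S100a11 that gap lay between day 14 (13.8 ± 3.70 FPKM) and E19.5 (4.35 ± 1.05 FPKM). S100a16 fell from the spheres (59.1 ± 4.08 FPKM at day 7, the lowest culture mean) to E19.5 (36.2 ± 3.27 FPKM) and then to E17.5 and adult LG (21.2 ± 2.74 and 21.04 ± 4.68 FPKM), with gaps between these steps.

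As a description over the same 20 libraries, the levels of S100a6 and S100a14 followed each other most closely within the family (Pearson r = 0.97 of log2(FPKM + 1)), and S100a14 and S100a11 had r = 0.87. S100a1 went its own way, with r from -0.09 to 0.46 against the other 5. These libraries share the split between culture and tissue, which sets much of any such r. Among 10652 other named genes, those most like S100a1 were Krt18, a keratin of simple epithelia (r = 0.95), Klhdc7a (0.91) and Kcnq1 (0.91). Those most like S100a10 were Eno1, a glycolytic enzyme (0.98), Sfr1 (0.98) and Naa20 (0.97). S100a6 was most like Vmp1 (0.97), Cxcl5 (0.97) and Gm21781 (0.95), and S100a14 most like Cast, the calpain inhibitor calpastatin (0.97), Rnf152 (0.96) and Pthlh (0.96). S100a11 was most like Gm9949, Plek2 and 1700007K13Rik (each 0.97), and S100a16 most like Leprotl1, Cstb and Bcl10 (each 0.95).

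The partners and receptors of S100 proteins were read from a list of 18 genes. At day 7 against adult LG, 7 of 12 tested were higher and none lower, beside the 14.2% and 21.1% of all genes. Of the 4 annexins listed, Anxa1 and Anxa2 were higher, and Anxa6 and Anxa11 did not pass (-0.41 and -0.17, limma adjusted p = 0.609 and 0.532). Anxa1, which S100a11 binds, was at 35.05 against 2.16 FPKM on average (log2 difference 3.56 ± 0.31, limma adjusted p = 5.9e-04). Anxa2, the S100a10 partner, was at 6.36 against 1.73 FPKM (1.51 ± 0.32, limma adjusted p = 0.013). Nptn and the receptor Ager followed, at 1.30 ± 0.21 and 1.29 ± 0.41 (limma adjusted p = 0.00466 and 0.0498). In the single passage 10 library, whose table was made against another gene list, Anxa1 and Anxa2 were at 1643 and 498 FPKM. Nptn and Ager were at 33.1 and 1.91 FPKM there, below their day 7 means of 91.1 and 6.22 FPKM. The part of the way the tables were made in the partner values was not tested.

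In embryonic against adult LG, the E17.5 fit called 6 of 13 of these genes higher and 2 lower, beside 29.1% and 24.9% of all genes, and the E19.5 fit 8 and 2, beside 30.3% and 23.9%. Ager was higher by 2.03 ± 0.31 at E17.5 and by 2.42 ± 0.31 at E19.5 (limma adjusted p = 6.3e-04 and 2.6e-04). Cacybp and Anxa6 were higher at E17.5 by 1.44 ± 0.19 and 1.24 ± 0.15 (limma adjusted p = 2.9e-04 and 2.0e-04). They were also higher at E19.5, by 1.27 and 1.17 (limma adjusted p = 6.3e-04 and 3.1e-04). Anxa1 and Anxa2 were higher at E19.5 by 1.35 ± 0.28 and 1.32 ± 0.29 (limma adjusted p = 0.00354 and 0.00536). At E17.5 Anxa2 was also higher, by 0.94 (limma adjusted p = 0.025), and Anxa1 did not pass (-0.09, limma adjusted p = 0.81). Atp2a2, the pump that S100a1 acts on, was lower, with differences of -1.05 ± 0.26 and -1.52 ± 0.26 (limma adjusted p = 0.00846 and 0.00134). Anxa1 was also higher at E19.5 than at E17.5, the sole partner called between the stages (1.44 ± 0.28, limma adjusted p = 0.0455). None of the 12 partners tested was called between day 14 and day 7 or over the culture days.

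Of 9 further S100 genes 7 were listed. S100b, known from glia and nerve sheath, was at 45.0, 43.3 and 28.9 FPKM at E17.5 and at 28.8, 22.1 and 26.7 FPKM at E19.5, but at 0, 0 and 0.353 FPKM in adult LG (log2 differences 5.15 ± 0.21 and 4.60 ± 0.21, limma adjusted p = 6.4e-07 and 1.3e-06). The 4 nerve sheath markers summed to 11.4 to 19.8 FPKM at E17.5 and 15.3 to 31.0 FPKM in adult LG, and Sox10 was listed at 0 throughout. S100a5, named as the other gene called, was higher at E17.5 by 1.04 ± 0.32 (limma adjusted p = 0.0234), on 12 reads in all. Both S100b and S100a5 were under the filter in adult LG and could be called only as higher.

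The neutrophil pair was barely detected in tissue. S100a8 had 1 read in each of the 3 adult libraries and 0 to 1 in the embryonic ones, and S100a9 was listed at 0 in all 20 libraries. The 10 neutrophil markers summed to 3.38 to 6.90 FPKM in adult LG, 7.71 to 11.9 FPKM at E17.5, 4.91 to 8.19 FPKM at E19.5 and at most 1.16 FPKM in the spheres. The 9 macrophage and leukocyte markers summed to 163 to 499 FPKM in adult LG and 91.0 to 161 FPKM in the embryonic glands. In the spheres they summed to 19.7 to 116 FPKM at day 7 and 100 to 371 FPKM at day 14. Nearly all of that was Cd14, at 65.9 and 241 FPKM on average at those days.

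In the passage 10 library all 10 genes were above 0, and the order of the family was another one. S100a11 led at 1884 FPKM, followed by S100a6 at 914, S100a10 at 395, S100a14 at 362 and S100a16 at 202 FPKM. S100a9 was at 68.0 FPKM, S100a13 at 17.996, S100a8 at 16.1, S100a1 at 15.0 and S100a4 at 0.576 FPKM. Beside these stand the passage 2 day 7 means of 19.1 FPKM for S100a11, 4.45 for S100a6, 347 for S100a10, 2.91 for S100a14, 59.1 for S100a16 and 139.8 for S100a1. S100a10 was thus at a like level in both, S100a1 was the gene with the lower passage 10 value, and S100a11, S100a6 and S100a14 were far higher.

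These differences have no replicate check and are not a test of passage. The passage 10 table was made against another gene list, with 111 assembled loci in place of 11226. Of 5333 genes with at least 10 FPKM in it, 2696 (50.6%) had a day 7 mean under a 10th of that value, and 577 were listed at 0 in all 20 other libraries, whereas of 3388 genes with at least 10 FPKM at day 7, 1.51% had a passage 10 value under a 10th of theirs. The basal keratins Krt14 and Krt5 were at 7065 and 4931 FPKM at passage 10, against 11.3 and 1.02 FPKM at day 7 of passage 2. The paper, for its part, reports constantly high Krt14 and Krt5 transcripts in the different passages. Eef1a1 was at most 0.562 FPKM in the 20 libraries, which include gland tissue that was never passaged, against 3461 FPKM at passage 10. Between the 2 sets of day 7 spheres, passage and the way the tables were made cannot be told apart. This bears on the low values of S100a4, S100a6, S100a8, S100a9, S100a11, S100a13 and S100a14 in the 20 libraries as well.

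**Figure D4:**
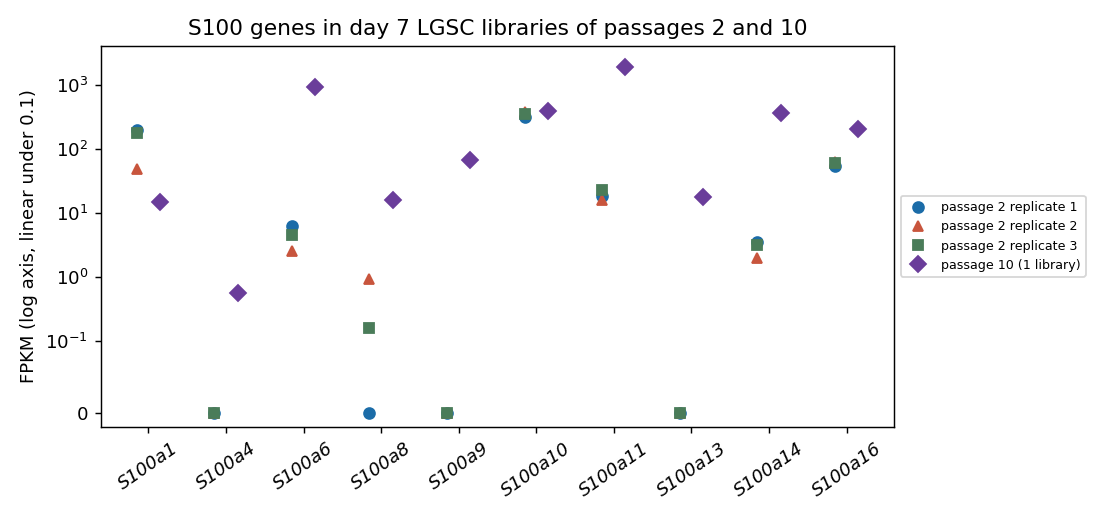
FPKM of the 10 S100 genes in day 7 LGSC libraries of passage 2 (3 libraries, marked by replicate) and passage 10 (1 library), on a log axis that is linear under 0.1 FPKM. S100a10 lies at 316 to 376 FPKM at passage 2 and 395 FPKM at passage 10, while S100a11, S100a6 and S100a14 lie far higher at passage 10 and S100a1 lower.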

How the data were processed

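Total RNA was made into poly-A libraries with a kit that does not keep strand. Per the labels, the submitters' processing notes name CASAVA 1.8, HISAT2 2.0.5, featureCounts 1.5.0-p3 and build NCBIM37. The authors deposited 1 table of FPKM values per library, and the unit was read from the values. Their steps matched exon lengths of GENCODE M21 (build GRCm38), which gave symbols and positions for 52403 of 52636 Ensembl identifiers. Reads recovered from those steps came out whole (tolerance 0.01, counted for values of at most 1000 reads) in 92.6% to 93.6% of genes.

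Tests used limma 3.58.1 (lmFit and eBayes with trend, R 4.3.3) on FPKM after log2(FPKM + 1), for every gene averaging 0.5 FPKM or more in the fit, two-sided, with Benjamini-Hochberg adjustment over all genes and a threshold of 0.05. This scale understates changes of low genes. The 9 tissue libraries shared a fit, and the other comparisons used their own groups. The summaries came from Python 3.11.15 with pandas 2.3.3 and numpy 2.4.6, the plots from matplotlib 3.10.9. Members, gene lists and motifs were chosen with earlier results of these data known. List genes are named by the 2 to 4 largest changes past the threshold and a mean from 1 FPKM, and like genes by the 3 highest correlations. Same-numbered culture libraries deviated together (r = 0.25 to 0.71 over 15 pairs), so the numbers pair them, and same-numbered tissue libraries did not (r = -0.08 to 0.07).

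The fits were tested on simulated data in which 200 genes differed by 2 on the log2 scale, at 2 noise settings. The easier setting was added after the noisier one had recovered fewer genes than hoped. At a dispersion of 0.1, with changed genes from 1 FPKM, 84 to 149 of 200 were called, all with the right sign, and 3.26% to 21.5% of calls were false. At a dispersion of 0.05, with changed genes from 2 FPKM, 162 to 187 were called and 2.99% to 16.0% of calls were false. The false share was thus above the nominal level in 5 of 6 comparisons under both settings, while 3.58% to 5.59% of unchanged genes had an unadjusted p under 0.05. The median SD of the deposited values of genes from 10 FPKM (0.238 to 0.390) lay nearer to the easier setting (0.293 to 0.309) than to the noisier one (0.420 to 0.436) in all comparisons but day 7 against adult LG.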

Additional observations from a re-analysis of the deposited data

How the results depend on the processing

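The calls were recomputed with a pseudocount of 0.1, no filter, a minimum mean of 2 FPKM, median-ratio scaling, scaling to recovered reads, limma-voom on recovered reads, the replicate block, other libraries in the fit, log2 of the culture day and each library left out, with 2 alternatives chosen after seeing the data. Of 527 values of single genes, 498 kept their direction and side of the threshold, 8 newly passed, 6 no longer passed and 15 turned direction. S100a10 kept both in every alternative of the comparisons with adult LG. For E17.5 against adult LG, 1 S100 gene was called in place of 2 with no filter or with all 20 libraries in one fit, 3 with scaling to recovered reads, and 1 to 3 with a library left out. For E19.5 against adult LG 3 were called in place of 2 with scaling to recovered reads or without adult replicate 3. Between E19.5 and E17.5 LG, 0 to 1 were called with a library left out. The 1 was S100a16 without adult replicate 3, where 1736 genes in all were called in place of 323. For day 7 against adult LG, the 5 genes called as reported include S100a6 and S100a14, which could be called only as higher. With adult replicate 3 as the sole adult library, the S100a6 and S100a14 differences were 1.73 and 1.74, against 1.98 and 1.88 as reported. Without the culture replicate 2 series the slope called 1 S100 gene in place of 0, where 280 of 15261 genes were called in all.

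Scaling to recovered reads moved the median of all genes from 0.05 to 0.64 (E17.5), from 0.09 to 0.58 (E19.5) and from -0.08 to 0.60 (day 7 against adult LG) on the log2 scale, and the share of calls that were higher from 53.8% to 81.5%, from 55.9% to 81.4% and from 40.2% to 75.8%. Between E19.5 and E17.5 that share went from 64.1% to 49.5%, and for the slope from 30.2% to 41.8%. S100a1 then turned to 0.12, 0.72 and 0.91 in the first 3 of these, or -0.52, 0.13 and 0.30 relative to the median, and S100a11 to -0.002 between the embryonic stages. The other reversals were S100a16 at E17.5 against adult (-0.16 without adult replicate 3 and -0.07 without E17.5 replicate 3, in a range up to 0.146 with a library left out) and in its slope (-0.0 without day 7 replicate 1 and -0.002 without day 14 replicate 2, up to 0.032), S100a1 at E19.5 against adult (0.054 without adult replicate 3, down to -0.42), at day 7 against adult (0.44 without day 7 replicate 2 or the replicate 2 series and 0.02 without adult replicate 3, down to -0.574) and at day 14 against day 7 (-0.078 without day 7 replicate 2, up to 1.374), and S100a11 between the stages (-0.035 and -0.055 without E17.5 replicate 3 or E19.5 replicate 2, up to 0.227). The cause was not tested.

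The replicate block changed no S100 call (2, 2, 0, 5, 0 and 0 genes called in the 6 comparisons), while genes called between the embryonic stages, whose numbers do not pair, went from 323 to 100. The 5 are for day 7 against adult LG and include S100a6 and S100a14, which could be called only as higher and carry no weight in a count. Over all alternatives, the genes called in all ran from 50 to 2177 between the stages, from 3444 to 8664 for day 7 against adult LG (6238 as reported) and from 0 to 783 for the slope (334 as reported). S100a4, S100a8, S100a9 and S100a13 had at most 12 reads in any of the 20 libraries, where no difference was detectable, and the part of depth in this was not tested.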
